A study of Mus musculus with 35 samples.

Results

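The transcripts described here are 9 genes of cAMP and protein kinase A (PKA) signalling in microglia of the mouse brain: the PKA regulatory subunits Prkar1a and Prkar2a, the PKA catalytic subunits Prkaca and Prkacb, the adenylyl cyclase Adcy7, the phosphodiesterases Pde3b and Pde4b, and the transcription factors Creb1 and Crem. They were chosen by name as members of the pathway, with earlier results of these data known. All 9 had a row among the 21236 genes of the count table. The samples came from 12 adult mice, 6 male and 6 female, that carried Tmem119-2A-CreERT2 together with the reporter Ai14(RCL-tdTomato)-D, and all of them had received tamoxifen, so no sample without the transgenes or the drug is among them. The CreERT2 is made from the locus of Tmem119, a transmembrane protein of microglia, and tamoxifen lets it switch on the red reporter tdTomato, by which the cells were sorted. RNA-seq was performed on sorted cells of the midbrain (6 male, 6 female), the striatum (6 male, 6 female) and the prefrontal cortex (PFC, 5 male, 6 female). All regions were taken from the same mice, apart from a male mouse without a PFC sample. The questions of the study were which transcripts differ between the regions and between the sexes.

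cAMP is made from ATP by adenylyl cyclases, which the G protein Gs switches on and Gi holds down, and it is broken down again by phosphodiesterases. It binds the regulatory subunits of PKA, which then let go of the catalytic subunits, and these phosphorylate many proteins, among them CREB, a transcription factor that binds the cAMP response element in promoters. In microglia the pathway is known for damping inflammatory responses and for its part in the movement of processes, and receptors for ATP and ADP, adenosine, noradrenaline and prostaglandin E2 feed into it.

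The libraries held 37680501 to 54131421 counts each, and 16725 to 19671 genes per library had a count. The lowest count of any member in any library was 235, for Crem, and the highest 43969, for Prkar1a, so counting error was small beside the spread between mice. Levels are given as CPM, the counts relative to a library size adjusted by TMM factors. The sort was checked on defining markers: 12 microglial transcripts summed to 43297 to 55139 CPM in every library, while 12 neuronal transcripts summed to 5.49 to 11.1 CPM in the midbrain, 11.1 to 23.9 in the striatum and 15.6 to 43.0 in the PFC, and of 10 markers of striatal projection neurons, 8, without Drd1 and Drd2, had a row in the table and summed to 0.656 to 3.91 CPM in the midbrain, 4.68 to 17.95 in the striatum and 0.236 to 5.08 in the PFC. A region effect was found in 4 of these 8, all of them higher in the striatum. Of the endothelial markers, 9 genes summed to 11.7 to 72.1 CPM. In 1 library, from the striatum of the male mouse 3, the name of the count column gives another region than the label, and it was placed by its label. Without it, the 3 members with a region effect kept it (adjusted p = 4.5e-04 for Prkar1a, 0.0258 for Adcy7 and 0.018 for Pde4b).

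To show the sequences searched for the element of CREB in the genes that the results turn on, stretches are printed of the promoters of Prkar1a, Adcy7 and Pde4b, on the strand of the gene, 5′ to 3′, with the cAMP response element TGACGTCA or its short form, TGACG or CGTCA, in capitals. The sequences are RefSeq's for GRCm38.p6, in windows of 300 bases from 250 before to 50 after each annotated start. The 3 short stretches have 30 bases each. The longer ones are the 250 bases before a start site inside the gene, outside the exons of GENCODE M21 for Adcy7 and with 13 of the 250 bases in an exon for Prkar1a.
Prkar1a, element, chr11:109650889-109650918, + strand: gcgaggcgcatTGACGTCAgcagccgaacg
Adcy7, short form, chr8:88282952-88282981, + strand: tgatcatagagcCGTCAggggggtggggct
Pde4b, short form, chr4:102421509-102421538, + strand: gatttggctgcaCGTCAattttctcatctg
Prkar1a, before the start at 109650862, chr11:109650612-109650861, + strand: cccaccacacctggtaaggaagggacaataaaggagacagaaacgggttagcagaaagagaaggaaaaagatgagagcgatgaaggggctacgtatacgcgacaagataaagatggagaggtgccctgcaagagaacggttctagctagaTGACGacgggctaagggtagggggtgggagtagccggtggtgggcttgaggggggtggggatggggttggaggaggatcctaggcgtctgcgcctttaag
Adcy7, before the start at 88282992, chr8:88282742-88282991, + strand: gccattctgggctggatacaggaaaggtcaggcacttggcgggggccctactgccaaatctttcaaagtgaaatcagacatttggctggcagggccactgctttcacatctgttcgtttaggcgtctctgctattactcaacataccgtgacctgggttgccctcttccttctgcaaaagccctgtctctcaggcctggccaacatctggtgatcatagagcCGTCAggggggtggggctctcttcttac

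Windows were at hand for 7 of the 9 members, 20 windows in all, with none for Pde3b and Crem. The whole element, a palindrome and so the same on both strands, was found in 1.79% of all 32851 windows, and among the members in Prkar1a alone, where 2 overlapping windows share the same site, 38 bases after the start at 109650862 and 49 bases before the start at 109650949, in an intron of the longer transcripts by GENCODE M21. The short form on either strand, which the whole element also contains, was found in 20.8% of all windows, and in 8 of the 20 windows of the members (40%), from 6 of the 7 members: Prkar1a, Prkar2a, Prkaca, Prkacb, Adcy7 and Pde4b. In Adcy7 it starts 28 bases before the start at 88282992, and in Pde4b 34 bases before the start at 102421555, where GENCODE M21 places it in an exon. The single window of Creb1 held none. The 2 overlapping windows of Prkar1a are both among the 8 and share their short forms. The 20.8% is a share of windows, and the share of genes with a short form in any window was not counted. A match of these letters is a description of the sequence and does not show that a factor binds there.

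The members span a wide range of levels. Per kb of exon, a scale on which genes can be set side by side, the level over all 35 libraries was highest for Prkar1a at 158 CPM per kb, followed by Pde3b at 35.6, Prkaca at 21.5, Prkacb at 12.1, Adcy7 at 12.0, Pde4b at 7.67, Creb1 at 3.77, Prkar2a at 3.61 and Crem at 2.44. In this order Prkacb and Adcy7, and likewise Creb1 and Prkar2a, differed by less than the spread between libraries: in the striatum, for example, Prkacb was at 11.6 ± 1.18 CPM per kb and Adcy7 at 12.0 ± 1.35 (SD, n = 12). Of the regulatory subunits, then, the type I subunit Prkar1a was by far the more abundant message. The highest library exceeded the lowest by 1.46-fold for Prkar1a and by 5.42-fold for Crem, with the other members between these, and the plot of levels by region shows each library.

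**Figure D1:**
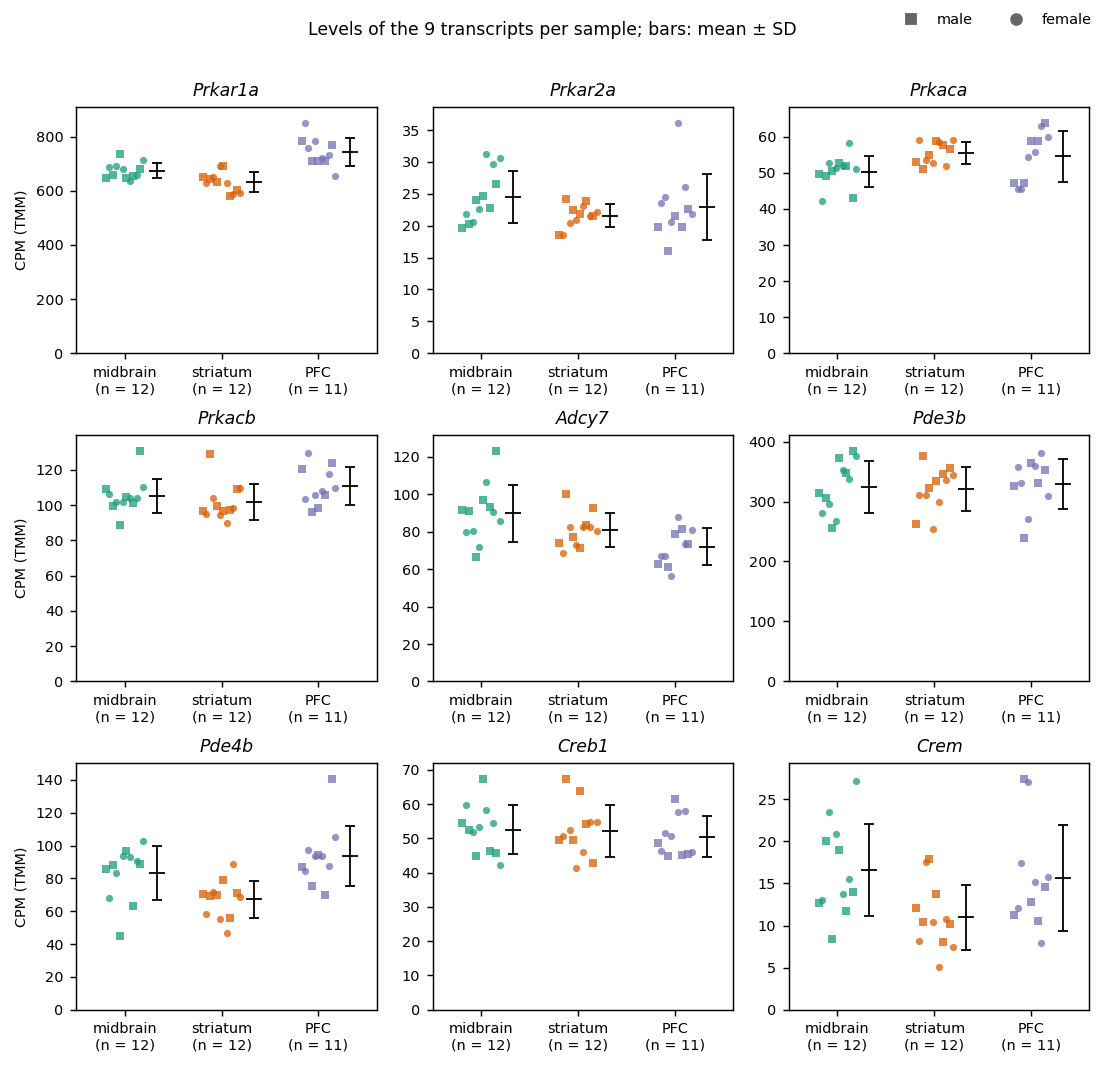
Level of each of the 9 transcripts (CPM with TMM factors, linear axes from 0) in every library of the midbrain, striatum and PFC, with squares for males and circles for females, in the order of the mouse numbers from left to right; black bars give the mean ± SD. By its mean, Prkar1a sits lowest in the striatum and highest in the PFC, Adcy7 falls from the midbrain to the PFC, and Pde4b is lowest in the striatum. The ranges of the regions overlap for every one of the 9 transcripts.

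Among the 9 members, 3 differed between the regions at an adjusted p under 0.05 (edgeR's quasi-likelihood test of region with sex in the model, Benjamini-Hochberg adjustment over all genes), against 8.89% of all genes tested. These were Prkar1a, Adcy7 and Pde4b. In pairs of regions, a transcript was called where it had this region effect, an unadjusted p under 0.05 and more than a 1.2-fold change, the cut-offs of the study. By that rule 1 member was called in each pair, always lower in the region named first: Adcy7 for PFC against midbrain (5.99% of all genes called, 3.24% lower), Pde4b for striatum against midbrain (6.47% called, 2.98% lower) and Pde4b for striatum against PFC (3.14% called, 0.833% lower). By an adjusted p under 0.05 for the pair alone, with no minimum on the size, 2 members passed for PFC against midbrain (Prkar1a and Adcy7, 6.52% of all genes), 0 for striatum against midbrain (7.45%, edgeR, with 4 at an unadjusted p under 0.05, and 1, Crem, by DESeq2) and 2 for striatum against PFC (Prkar1a and Pde4b, 0.570%). For no member and no pair were the ranges of the regions apart, which was so for 0.476%, 0.297% and 0.0188% of all genes in the same order of pairs. In RNA from pools of cells, a transcript made in fewer cells and one made at a lower level in each cell cannot be told apart.

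Prkar1a (ENSMUSG00000020612, chr11:109649405-109669656 in GRCm38, + strand) encodes RIα, the regulatory subunit that holds the catalytic subunits inactive in the cytosol. Its level was 637 CPM in the lowest, 670.1 in the median and 736 in the highest library of the midbrain. In the striatum these were 582, 632 and 692 CPM. In the PFC they were 656, 731 and 852 CPM. The striatal libraries thus lay low and the PFC libraries high, with an overlap between 656 and 692 CPM, and the means were 675 ± 29.3 (SD, n = 12), 632 ± 36.8 (n = 12) and 744 ± 52.4 CPM (n = 11). The region effect had an adjusted p of 3.2e-04. The level in the striatum was below that in the PFC in 11 of 11 mice with both samples, where 1.39% of all genes moved the same way in every mouse, with a log2 fold change of -0.24 ± 0.04 (SE, edgeR adjusted p = 0.0015). This is a 1.18-fold difference and stayed under the minimum of 1.2, so that Prkar1a was not called by the rule for pairs, although its adjusted p was the lowest of the members. The study, which used DESeq2, does name Prkar1a as a transcript enriched in the PFC over both other regions. By DESeq2 here the log2 fold change was -0.24 for striatum against PFC and 0.14 for PFC against midbrain, also under the minimum. The reason for this disagreement with the study was not tested. Against the midbrain the PFC was higher in 9 of 11 mice (log2 fold change 0.14 ± 0.04, edgeR adjusted p = 0.025) and the striatum lower in 9 of 12 mice (-0.09 ± 0.04, edgeR adjusted p = 0.15). For PFC against midbrain the edgeR adjusted p rose to 0.052 to 0.127 when mouse 1, 2, 4, 6, 8 or 11 was dropped. Fitting only mice 1 to 6 gave 0.12, and only mice 7 to 12 gave 0.38. The same fits gave 0.058 and 0.16 for striatum against PFC, which stayed at 0.0099 or lower whichever mouse was dropped.

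The level of Prkar1a moved with other measures of the libraries. Across the 35 libraries, which share mice, its log2 CPM had a Pearson r of -0.67 with the mean log2 level of the 10 oligodendrocyte markers, -0.61 with the 10 astrocyte markers and -0.62 with the number of genes detected, and within regions, with region means removed, r was -0.54, -0.69 and -0.51. Striatal libraries had the most genes detected (19286 ± 444, SD, n = 12, against 18490 ± 540.4 in the midbrain and 18479 ± 753 in the PFC, n = 12 and 11). The 10 oligodendrocyte markers summed to 306 to 514 CPM in the midbrain, 300.1 to 854 in the striatum and 232 to 531 in the PFC, and 1 of the 10 had a region effect. Of these 10, 7 had a mean of at least 1 CPM. Among those below it were Olig2 and Sox10, at 0.509 and 0.843 CPM over all libraries. The 10 astrocyte markers summed to 219.7 to 285 CPM in the midbrain, 279 to 511 in the striatum and 272 to 578 in the PFC, and 5 of the 10 had a region effect. The part of these measures in the difference of Prkar1a was not tested.

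Prkar2a (ENSMUSG00000032601, chr9:108689314-108750436, + strand) encodes RIIα, the regulatory subunit that anchoring proteins tie to membranes and the cytoskeleton. It lay at 19.6 to 31.2 CPM in the midbrain with a median of 23.4, at 18.6 to 24.2 in the striatum with a median of 21.7, and at 16.03 to 36.2 in the PFC with a median of 21.8. The ranges overlapped, and no pair passed the test (adjusted p = 0.43 for region, 95% interval of the log2 fold change -0.36 to 0.003 for striatum against midbrain). The catalytic subunit Cα, from Prkaca (ENSMUSG00000005469, chr8:83972993-83996443, + strand), had medians of 51.1 CPM in the midbrain, 55.8 in the striatum and 55.9 in the PFC. Its lowest and highest libraries were at 42.3 and 58.3, 51.1 and 59.1, and 45.6 and 63.9 CPM. The striatum was above the midbrain in 11 of 12 mice, with a log2 fold change of 0.14 ± 0.06 (SE) that did not pass the test (edgeR adjusted p = 0.146). Prkacb (ENSMUSG00000005034, chr3:146729574-146812990, - strand), which encodes Cβ, ran from 89.0 to 131 CPM in the midbrain, from 89.8 to 129 in the striatum and from 95.9 to 129.7 in the PFC, with medians of 104, 97.9 and 108 CPM, and had no region effect (adjusted p = 0.39). An annotated pseudogene of Prkaca and the paralogue Prkacb could share reads with it, and how such reads were counted is not stated.

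**Figure D2:**
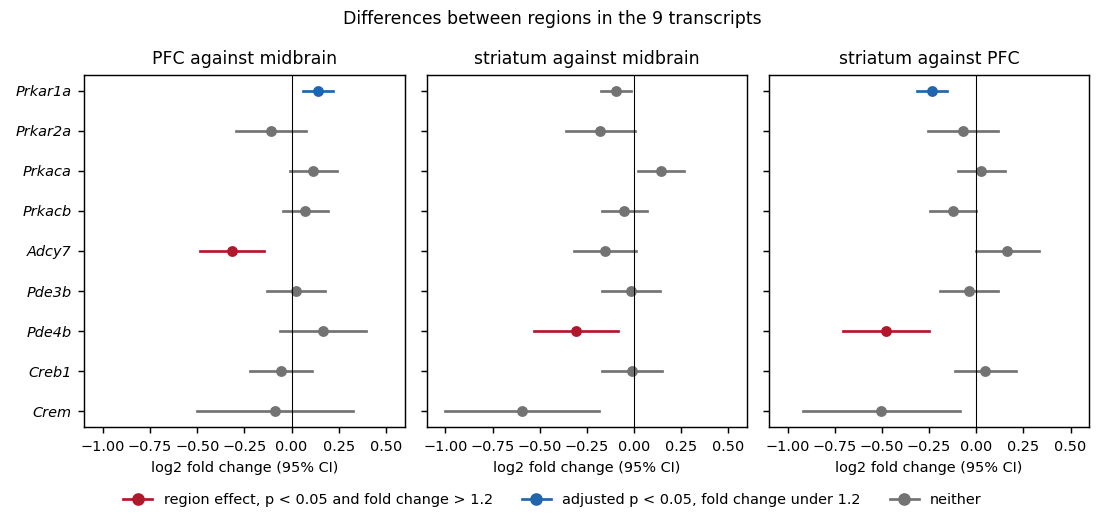
Log2 fold change with its 95% confidence interval for each of the 9 transcripts and each pair of regions, from the edgeR fit over all 35 libraries. Adcy7 is called for PFC against midbrain and Pde4b for striatum against midbrain and against PFC (red). Prkar1a passes the adjusted test with a fold change under 1.2 in 2 pairs (blue), and the intervals of Prkar2a, Pde3b and Creb1 include 0 in every pair.

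Adcy7 (ENSMUSG00000031659, chr8:88272403-88329962, + strand) encodes an adenylyl cyclase known from blood and immune cells. In the midbrain the lowest, median and highest libraries were at 66.3, 90.6 and 123 CPM, in the striatum at 68.3, 81.3 and 100.3 CPM and in the PFC at 56.4, 73.2 and 88.0 CPM. The levels stepped down from midbrain to striatum to PFC, with wide overlap between neighbouring regions, and the means were 89.7 ± 15.2, 80.7 ± 9.06 and 71.8 ± 9.88 CPM (SD, n = 12, 12 and 11). The PFC was below the midbrain in 11 of 11 mice, where 3.03% of all genes moved the same way in every mouse, by a log2 fold change of -0.32 ± 0.08 (SE, 1.24-fold lower, edgeR adjusted p = 0.013). The striatum passed the test against neither neighbour (-0.15 ± 0.08 against the midbrain, edgeR adjusted p = 0.30, and 0.16 ± 0.08 against the PFC, edgeR adjusted p = 0.44). The region effect of Adcy7 had an adjusted p of 0.0319, close to the threshold, and it was lost when any of the mice 1, 2, 4, 7, 10 or 11 was left out (0.054 to 0.081), although the pair itself kept an edgeR adjusted p of at most 0.040 without each of these 6 mice. With the mouse as a block the region effect was at 0.0027. In mice 7 to 12 alone Adcy7 was also called for striatum against midbrain (-0.28, edgeR adjusted p = 0.064), where mice 1 to 6 alone gave -0.02.

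Pde3b (ENSMUSG00000030671, chr7:114415281-114539251, + strand) encodes a cAMP phosphodiesterase that cGMP inhibits, and per kb it was the more abundant phosphodiesterase of the members. Its libraries ran from 256 to 384 CPM in the midbrain (median 326), from 254 to 376 in the striatum (median 328) and from 239.8 to 380.1 in the PFC (median 331). The ranges of the 3 regions lay almost on top of each other, with an adjusted p of 0.95 for region and 95% intervals of the log2 fold change of -0.13 to 0.18 for PFC against midbrain and -0.17 to 0.14 for striatum against midbrain.

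Pde4b (ENSMUSG00000028525, chr4:102087543-102607259, + strand) encodes a cAMP-specific phosphodiesterase that is known as a regulator of inflammatory responses in myeloid cells, and it did differ. In the striatum its lowest, median and highest libraries were at 46.7, 69.8 and 89.0 CPM, where those of the midbrain were at 44.8, 88.4 and 103 CPM and those of the PFC at 70.2, 93.7 and 141 CPM. The median and the highest library of the striatum thus lay below those of both other regions, but the lowest value of all was from the midbrain of mouse 5. Means were 67.2 ± 11.5 CPM in the striatum, 83.2 ± 16.5 in the midbrain and 93.6 ± 18.4 in the PFC (SD, n = 12, 12 and 11). The striatum was lower than the PFC in 10 of 11 mice (log2 fold change -0.48 ± 0.11, SE, 1.39-fold, edgeR adjusted p = 0.037) and lower than the midbrain in 11 of 12 mice (-0.31 ± 0.11, 1.24-fold, edgeR adjusted p = 0.084). The exception in the latter was mouse 5, and without that mouse the difference was -0.38 with an edgeR adjusted p of 0.014. The call against the midbrain was lost without mouse 8 (-0.26, edgeR adjusted p = 0.19), in mice 1 to 6 alone (-0.23, edgeR adjusted p = 0.52) and in mice 7 to 12 alone (-0.38, edgeR adjusted p = 0.18), and the call against the PFC in each of these divisions. Leaving out 1 mouse never ended the call against the PFC. The edgeR adjusted p of that pair was, however, 0.062 to 0.094 without mouse 1, 2, 4, 6, 7, 8, 11 or 12. When the fit held the mouse as a block, the adjusted p was 0.032 against the midbrain and 0.0053 against the PFC.

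**Figure D3:**
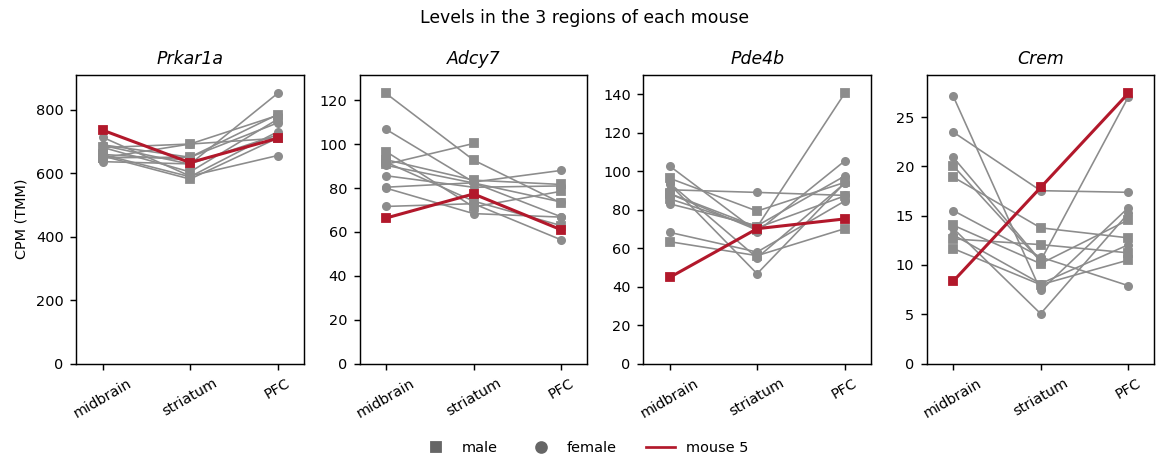
Level (CPM, linear axes from 0) of Prkar1a, Adcy7, Pde4b and Crem in the midbrain, striatum and PFC of each mouse, with lines joining the samples of 1 mouse, squares for males and circles for females, and mouse 5 in red. In every mouse with both samples, Prkar1a rises from striatum to PFC, and Adcy7 is lower in the PFC than in the midbrain. Mouse 5 alone rises from midbrain to striatum in Pde4b and Crem.

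Creb1 (ENSMUSG00000025958, chr1:64532645-64604548, + strand), which encodes CREB itself, did not pass the test for region (adjusted p = 0.90). Its libraries ran from 42.2 to 67.3 CPM in the midbrain, from 41.4 to 67.2 in the striatum and from 44.9 to 61.4 in the PFC, with medians of 52.8, 51.5 and 48.6 CPM. The 95% intervals of the log2 fold change were -0.22 to 0.11 for PFC against midbrain and -0.17 to 0.15 for striatum against midbrain.

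Crem (ENSMUSG00000063889, on chromosome 18, - strand) encodes the CREB-related modulator CREM, whose gene also yields the short repressor ICER from an internal, cAMP-induced promoter. Per kb it was the scarcest member, and it varied the most between libraries. Its lowest, median and highest libraries were at 8.34, 14.8 and 27.1 CPM in the midbrain, at 5.06, 10.4 and 17.9 in the striatum and at 7.91, 14.6 and 27.4 in the PFC. As for Pde4b the striatal libraries lay low. The level of Crem in the striatum was below that in the midbrain in 11 of 12 mice, mouse 5 again being the exception. The same direction in all 12 mice, a stricter measure, was found for 2.82% of all genes. The share of all genes with 11 of 12 mice was not counted, here or for Pde4b and Prkaca. Means of Crem were 10.96 ± 3.88 CPM in the striatum, 16.6 ± 5.49 in the midbrain and 15.6 ± 6.32 in the PFC (SD, n = 12, 12 and 11). The log2 fold change was -0.59 ± 0.20 against the midbrain (SE, 1.51-fold, edgeR adjusted p = 0.066) and -0.50 ± 0.21 against the PFC (1.42-fold, edgeR adjusted p = 0.30), but the region effect missed the threshold with an adjusted p of 0.10, so Crem was not called. It was called with the mouse as a block (region effect 0.039, 4 members in all against 14.0% of genes), where 1, 2 and 2 members were called for PFC against midbrain, striatum against midbrain and striatum against PFC (6.85%, 8.62% and 4.86% of genes), and without mouse 5 (region effect 0.021, striatum against midbrain -0.75 with an edgeR adjusted p of 0.0094). Counts over the whole gene cannot separate ICER from the longer forms. An antisense gene, Gm6225, overlaps its exons by 472 bases and lay at 0 to 0.858 CPM.

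Crem and Pde4b also varied together between libraries. Over the 35 libraries, which share mice and processing, their log2 CPM had a Pearson r of 0.61 and a Spearman rho of 0.63 (0.58 without the 2 outermost libraries and 0.52 with region means removed). Across all 36 pairs of members this was the highest r, followed by Adcy7 with Pde3b, Prkar2a with Pde3b and Prkacb with Pde4b, each at 0.57, while Prkar1a and Adcy7 ran opposite ways (-0.53). With region means removed, r was higher for Adcy7 with Pde3b (0.71), Prkar2a with Pde3b (0.60) and Prkacb with Pde3b (0.56) than for Crem with Pde4b. A list of 18 transcripts known to rise when microglia are dissociated, among them Fos, Egr1, Atf3 and Ccl4, summed to 26954 to 58483 CPM, and 0 of its genes had a region effect in edgeR (3 at an unadjusted p under 0.05, 1 by DESeq2). The mean log2 level of this list had an r of 0.56 with Crem and 0.50 with Pde4b, and of 0.41 and 0.23 without the 2 libraries farthest from its median, the midbrain of mouse 5 and the striatum of mouse 8. Those 2 libraries were lowest in the list and had the lowest Pde4b of all. The part of this list in the differences between regions was not tested.

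**Figure D4:**
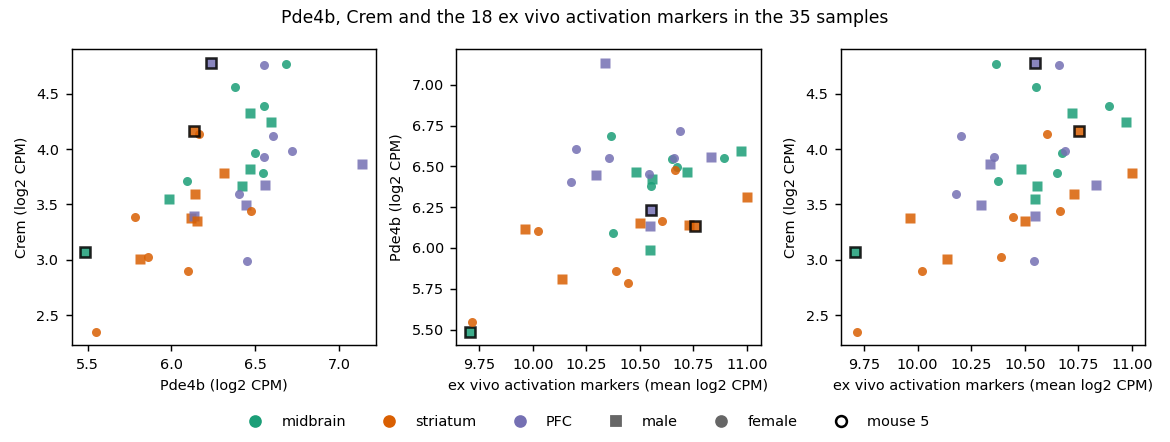
Log2 CPM of Crem against Pde4b (left) and of each against the mean log2 CPM of the 18 ex vivo activation markers (middle and right), 1 point a library, coloured by region, squares for males and circles for females, with the 3 libraries of mouse 5 outlined in black. Crem rises with Pde4b (r = 0.61), and the midbrain library of mouse 5 lies at the lower left end of the plots of the marker list.

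The genes most like each member were sought among the 8622 genes with a mean of at least 8 CPM, by Pearson r of log2 CPM over the 35 libraries. For Prkar1a these were Slc25a5 (0.86), the carrier of ADP and ATP of mitochondria, Ncoa4 (0.78), the receptor for autophagy of ferritin, and the dipeptidase Pepd (0.77). Adcy7 was most like Dgkz (0.86), a diacylglycerol kinase, Atf6 (0.80), a sensor of endoplasmic reticulum stress, and Ptprc (0.77), which encodes CD45. For Pde3b the genes were Dpp8 (0.85), Dock10 (0.84) and Tacc1 (0.83). Pde4b ran with Baz1a (0.86), Mapk6 (0.83) and Rab20 (0.82), and Crem with Fosl2 (0.88), a member of the AP-1 family, Nabp1 (0.87) and Gtf2b (0.85). For Prkar2a, Prkaca, Prkacb and Creb1 the highest r was lower, between 0.73 and 0.77, for Mapkapk3, Ccdc97, Ipo5 and Arhgap12.

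Over the 3 regions together, 0 of 9 members were called between the sexes in edgeR by an unadjusted p under 0.05 and more than a 1.2-fold change (4.13% of all genes), 0 reached that p whatever their size, and DESeq2 called none. The largest difference was in Prkar2a, with a log2 fold change of -0.15 ± 0.07 (SE, male against female, edgeR adjusted p = 0.63), and the 95% intervals of the others ran from -0.08 to 0.06 for Prkar1a, the narrowest, over -0.22 to 0.15 for Pde4b, to -0.40 to 0.28 for Crem, the widest. This fit took the libraries of 1 mouse as independent samples of a sex, which they are not, so these intervals can be too narrow. Within regions, 0 of 9 were called in edgeR in the midbrain (4.84% of all genes) and 0 in the striatum (2.28%), with 0 at an unadjusted p under 0.05 and 0 by DESeq2 in both, and 1 in the PFC (5.29%). There Prkar2a lay at 16.03, 19.8, 19.8, 21.5 and 22.7 CPM in the 5 males and at 20.5, 21.8, 23.6, 24.5, 26.1 and 36.2 CPM in the 6 females. The sexes overlapped, and 1 female library, of mouse 8, stood above the rest at 36.2 CPM. The difference of -0.35 ± 0.13 (edgeR adjusted p = 0.72, called by its unadjusted p) fell to -0.22 and was not called without mouse 8. No member had an interaction of region and sex at an adjusted p under 0.05 (0.00% of all genes, 0 called in edgeR, where 0 members reached an unadjusted p under 0.05, and 1 gene, no member, in DESeq2).

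The mice fall into numbers 1 to 6 and 7 to 12, each with 3 males and 3 females, and the labels do not call these a batch. With that division as a term added to the fit after the data were seen, 5 of 9 members differed between mice 7 to 12 and mice 1 to 6 at an adjusted p under 0.05, against 23.9% of all genes: Pde3b (log2 fold change 0.22, adjusted p = 9.5e-04), Adcy7 (0.23), Prkar2a (0.23) and Prkaca (0.15) were higher and Prkar1a (-0.08) lower in mice 7 to 12. This fit took the libraries of 1 mouse as independent samples of a division, which they are not. Its adjusted p-values can therefore be too low, and its counts, 5 of 9 and 23.9%, too high. In the midbrain Pde3b lay at 256 to 314 CPM in mice 1 to 6 and at 338 to 384 CPM in mice 7 to 12, without overlap, and Adcy7 and Prkaca were likewise apart in the PFC. Within mice 1 to 6 alone the region effect of Prkar1a had an adjusted p of 0.034, of Adcy7 0.12 and of Pde4b 0.28, and within mice 7 to 12 alone 0.043, 0.042 and 0.12. The directions were the same in both divisions: striatum against PFC gave -0.25 and -0.22 for Prkar1a and -0.40 and -0.53 for Pde4b, and PFC against midbrain -0.34 and -0.33 for Adcy7. For Crem, the log2 fold change of striatum against midbrain came to -0.36 in the former and -0.88 in the latter.

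The rest of the pathway was described from lists of 98 genes in 12 roles, members included, of which 84 had a row and 63 a mean of at least 1 CPM. These lists too were drawn up with earlier results of these data known. A region effect was found in 24 of the 84, or 21 of the 75 that are no members, against 8.89% of all genes. By the rule for pairs, 8 were higher and 9 lower for PFC against midbrain, and 11 higher and 7 lower for striatum against midbrain (2.75%, 3.24%, 3.50% and 2.98% of all genes). For striatum against PFC, 6 were higher and 4 lower (2.31% and 0.833%). The median log2 fold change of the 63 genes was -0.01 for PFC and 0.06 for striatum against midbrain, against 0.01 and -0.01 for all genes at or above 1 CPM.

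Receptors upstream of the cyclases differed between the regions in both directions. Among Gs-coupled receptors, Gpr65, an acid sensor, was at 31.5 ± 9.33 CPM in the midbrain, 9.92 ± 3.82 in the striatum and 7.20 ± 1.46 in the PFC (SD, n = 12, 12 and 11), and Ptger4, the EP4 receptor for prostaglandin E2, at 18.7 ± 8.77, 6.37 ± 1.73 and 6.85 ± 3.30 CPM. Both were thus lower outside the midbrain, by log2 fold changes of -2.14 and -1.45 in the PFC and -1.69 and -1.55 in the striatum. Vipr1, a receptor for vasoactive intestinal peptide, was higher in the PFC (0.63) and striatum (0.38), and Adrb1, the β1-adrenergic receptor, higher in the striatum (0.45). The midbrain library of the female mouse 6 had the highest sum over 8 markers of border macrophages and monocytes (129 CPM, where the next library had 21.2), and it also had 43.1 CPM of Ptger4 and 54.1 of Gpr65, but 71.6 of Adcy7, among the lower midbrain values. Its part in the differences of these receptors was not tested.

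Among Gi-coupled receptors, Ptger3, the EP3 receptor for prostaglandin E2, moved opposite to Ptger4, at 4.50 ± 2.06 CPM in the midbrain, 12.9 ± 3.80 in the striatum and 27.5 ± 7.23 in the PFC (log2 fold change 2.61 for PFC and 1.52 for striatum against midbrain). Hcar2, a receptor for hydroxybutyrate and niacin, fell from 68.6 ± 21.8 CPM in the midbrain to 25.3 ± 11.4 in the striatum and 17.99 ± 8.52 in the PFC (-1.96 and -1.49). Adora1, an adenosine receptor (-1.02 and -0.60), and Cnr2, the CB2 cannabinoid receptor (-0.47 and -0.34), were also lower in the PFC and the striatum. S1pr1, a receptor for sphingosine 1-phosphate (0.69 and 0.50), was higher in both, and P2ry12, the ADP receptor of homeostatic microglia, was higher in the PFC (0.29, edgeR adjusted p = 0.0024).

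Of the G proteins, Gnas, which encodes Gsα, was lower in the PFC than in the midbrain by a log2 fold change of -0.52 ± 0.08 (SE, edgeR adjusted p = 1.7e-05), at 284 ± 53.3 CPM against 407 ± 43.5 (SD, n = 11 and 12), and Gnal, its olfactory relative, by -0.26. Adcy8, a cyclase stimulated by calcium, was higher than in the midbrain by a log2 fold change of 1.33 ± 0.20 in the PFC and 0.62 in the striatum, at a level of 3.51 ± 1.31 CPM in the midbrain and 8.70 ± 2.10 in the PFC. Downstream, Pkib, a PKA inhibitor, was lower in the PFC (-0.35) and the striatum (-0.32), the anchoring protein Akap9 was higher in the striatum (0.68), as were the phosphodiesterases Pde1b (0.86) and Pde8b (0.36) and the CREB coactivator Crtc3 (0.40). Rapgef4, which encodes Epac2, a cAMP sensor other than PKA, was higher in the PFC (2.52) and the striatum (1.91), at 1.003 ± 0.839 CPM in the midbrain and 5.81 ± 4.12 in the PFC. The 12 neuronal markers had the same order of regions as Rapgef4 and Adcy8, from sums of 5.49 to 11.1 CPM in the midbrain up to 15.6 to 43.0 in the PFC, with a region effect in 6 of the 12, and their part in these differences was not tested. Nor was the part of the markers of striatal projection neurons, at 4.68 to 17.95 CPM in the striatum, in the higher level of Pde1b there. Among 8 known target genes of CREB, among them Fos, Nr4a1 and Dusp1, none had a region effect (0 of 8 in edgeR at an adjusted p, 0 at an unadjusted p under 0.05 and 0 by DESeq2, against 8.89% of all genes). Of these 8, 6 had a mean of at least 1 CPM. Fos, Nr4a1 and Dusp1 are also on the list of transcripts that rise when microglia are dissociated, so the 2 lists are not independent.

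**Figure D5:**
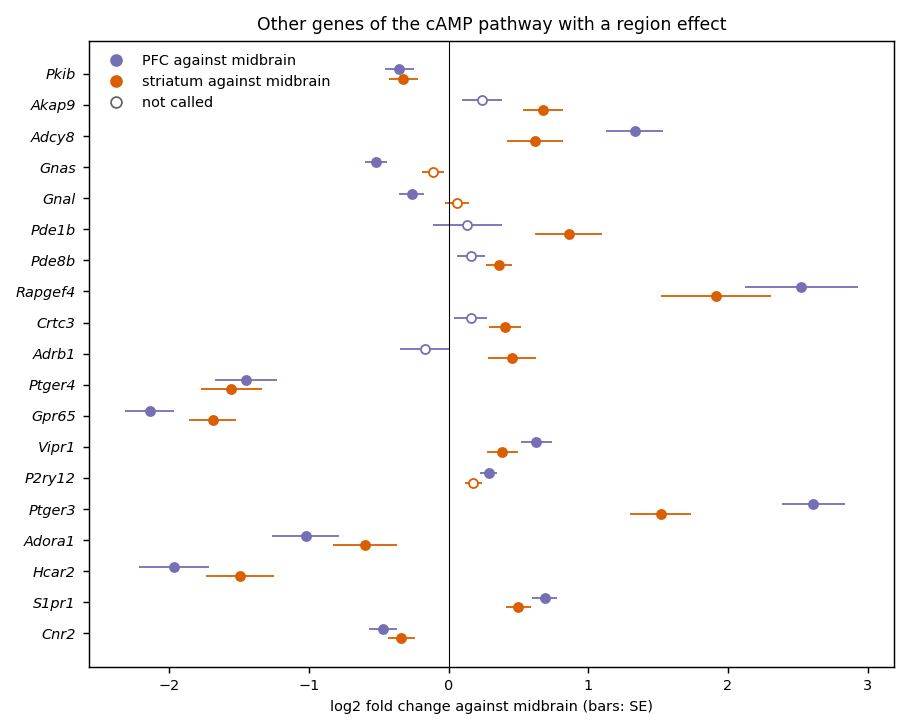
Log2 fold change (± SE) of PFC (purple) and striatum (orange) against midbrain for the 19 other pathway genes with a region effect and a mean of at least 1 CPM, filled where the pair was called and open where it was not. Gpr65, Ptger4, Hcar2 and Adora1 lie left of 0 and Ptger3, Rapgef4 and Adcy8 right of 0 in both regions.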

How the data were processed

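RNA was extracted from sorted tdTomato-positive cells, amplified (Takara Smart-Seq HT) and made into Nextera XT libraries, which do not keep strand. The authors trimmed paired reads with Trimmomatic, mapped these with HISAT2 to GRCm38, and deposited raw counts per Ensembl gene after removing genes with low expression; the counting tool, annotation release and treatment of strand and of reads with several matches are not given in the sources used here. No column of the table was set aside (0 columns not used), and 133 genes had no symbol in GENCODE M21.

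All 35 samples and 21236 genes entered 1 fit in R 4.3.3 with edgeR 4.0.16 (TMM, robust quasi-likelihood F-test). An additive model (region + sex) gave the effects of region, its pairs and sex, and a model with 1 mean per group gave the sex effect by region and the interaction. Region and interaction needed a Benjamini-Hochberg adjusted p under 0.05 over all genes, pairs a region effect with p under 0.05 and a fold change over 1.2, and sex a p under 0.05 with that fold change. log2 CPM used a prior count of 2. The fits were tested on simulated counts with changes planted in the PFC only. The simulation held no effect of mouse or sex and no change as small as those of the members, so it does not cover these cases. Python 3.11.15 and matplotlib 3.10.9 drew the plots.

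Mouse numbers in the sample titles pair the regions: deviations from group means correlated with r = 0.22 on average for the 34 pairs from the same mouse and -0.09 for 255 pairs of different mice of the same sex. Alternatives were DESeq2 1.42.0, its size factors, filterByExpr, at least 10 counts in every sample, the mouse as a block, adjusted p without a minimum fold change, mice 1 to 6 or 7 to 12 alone, counts summed per mouse, leaving out each mouse or the striatum sample of mouse 3, and, added later, the division of the mice as a term. All 9 members are named, other pathway genes where called at 1 CPM or more on average, and the 3 genes most correlated with each member at 8 CPM or more. Members, lists and tests were chosen with earlier results of these data known.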

Additional observations from a re-analysis of the deposited data

Results flagged for a closer look

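In each group of 1 region and 1 sex, the highest and lowest library of every member were compared with the others by Dixon's criterion at 95%, which chance meets in about 1 in 20 groups. Of 54 groups, 3 had a library that stood apart, all in the PFC and all the highest of their group. Prkar2a was at 36.2 CPM in the female mouse 8, where the next of the 6 libraries was at 26.1 CPM. Creb1 was at 61.4 CPM in the male mouse 7, the next of 5 libraries being at 48.6 CPM. Crem was at 27.4 CPM in the male mouse 5, the next of 5 libraries being at 14.6 CPM. Of 27 differences between regions, none had opposite directions in every male and every female mouse.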

How the results depend on the processing

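Over the 81 results of single members, 1385 of 1485 alternatives kept direction and side of the threshold, 23 lost a call, 9 gained one, 0 reversed, and 68 changed sign without a call in either fit. Most of the 81 results were not called in the main fit and so had no call to lose. Of the called region effects, that of Adcy7 was lost in 7 of 21 alternatives, that of Pde4b in 2 of 21 and that of Prkar1a in 0 of 21. Of the 9 members, 3 had a region effect, with 4 under the block for the mouse, 1 in mice 1 to 6 and 2 in mice 7 to 12 alone, and 2 to 4 when a mouse was left out (2 without mouse 1, 2, 4, 7, 10 or 11, 4 without mouse 5). For PFC against midbrain 1 member was called, with 2 by adjusted p alone, 0 in mice 1 to 6 alone, and 0 to 1 when a mouse was left out (0 without mouse 1, 2, 4, 7, 10 or 11). For striatum against midbrain 1 was called, with 2 under the block, 0 by adjusted p alone, 0 in mice 1 to 6 alone, and 0 (without mouse 8) to 2 (without mouse 5) when a mouse was left out. For striatum against PFC 1 was called, with 2 under the block, 2 by adjusted p alone, 0 in mice 1 to 6 and 0 in mice 7 to 12 alone, and 1 to 2 when a mouse was left out (2 without mouse 5). For sex in the PFC 1 was called, and 0 to 1 when a mouse was left out (0 without mouse 8). The added calls under the block were those of Crem, and it changed no other call of a member. Fewer mice were fitted in each division, and the other causes were not tested. Over all genes, the count with a region effect ran from 512 (mice 1 to 6 alone) to 2977 (block) around 1888, PFC against midbrain from 397 to 1488 around 1271, striatum against midbrain from 411 to 1830 around 1375, striatum against PFC from 121 (adjusted p alone) to 1032 (block) around 667, and sex from 72 (adjusted p alone) to 1114 around 878. filterByExpr left 16966 genes and the minimum of 10 counts 12169, with all 9 members in both. Depth was no limit for the members, the lowest count being 235.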

Other observations

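Of the 75 genes on the lists that are no members, 4 were called between males and females over the 3 regions, 2 higher and 2 lower in males, where 4.13% of all genes were. Prkar1b, the gene of the regulatory subunit RIβ, was higher in males by a log2 fold change of 0.28 ± 0.07 (SE, edgeR adjusted p = 0.041), and it was at 32.0 CPM over all libraries. The libraries of 1 mouse are not independent samples of a sex, and with the counts summed per mouse the difference was 0.28 ± 0.08 (SE) and did not pass the test (edgeR adjusted p = 0.97, n = 12 mice). The other 3 did not pass the adjusted test: Hcar2 was at 0.42 (edgeR adjusted p = 0.59), Adcy9 at -0.28 (0.34) and Sik1, a kinase gene induced by CREB, at -0.38 (0.62).

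Adcy1 and Adcy2, cyclases known from neurons, had a region effect at means under 1 CPM. Adcy1 was at 0.0762 ± 0.165 CPM in the midbrain and 0.603 ± 0.368 in the PFC, and Adcy2 at 0.258 ± 0.185 and 1.17 ± 0.687 CPM (SD, n = 12 and 11).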
